A study of Drosophila melanogaster with 8 samples.

Results

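Idefix, accord2, Tabor and gypsy10 are long terminal repeat (LTR) retrotransposons of Drosophila melanogaster. Peaks of N6-methyladenine (6mA) on these elements were taken from lists of peaks on transposon sequences, by the element name that each peak carries. They made up 57 of the 144 peaks in the 4 lists, with 18 on Idefix, 21 on Tabor, 15 on accord2 and 3 on gypsy10, and the other 87 lay on the other 4 transposons with a peak. The lists came from ovarian genomic DNA that was precipitated with an antibody against 6mA and sequenced. In the Sam-S genotype a UASp-Sam-S transgene was driven in the germline by nanos-gal4. The labels give the other genotype only as control, and do not say whether it carried the driver or the transgene. Each genotype had 2 libraries, Sam-S 1 and control 1 from batch 1 and Sam-S 2 and control 2 from batch 2. The nanos promoter drives expression in germ cells, while the ovary also holds somatic follicle cells, and the DNA of all ovarian cells was pooled. Age and strain are not given in the labels, and nothing in them says that the libraries came from separate cultures, so the spread between libraries may be technical. The lists hold no expression values, so the overexpression itself was not checked here.

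LTR retrotransposons move by copying their RNA into DNA and inserting the copy elsewhere in the genome. All of these elements are placed in the gypsy superfamily, and Idefix is a gypsy-like element with an envelope gene that is kept silent in ovarian follicle cells through the flamenco piRNA locus. 6mA is adenine with a methyl group on its exocyclic nitrogen, a mark that is rare in fly DNA and has been reported on transposons in the Drosophila ovary. Sam-S makes S-adenosylmethionine, the methyl donor for most methylation reactions, and the design asks whether more of this enzyme in the germline changes the 6mA profile.

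By the headers of the matching genome peak lists, the immunoprecipitated libraries held from 39591292 to 49800736 tags and the inputs from 39571865 to 52344880. How many of them fell on transposon sequences is not known. The genome lists held 4244 peaks in Sam-S 1, 5509 in Sam-S 2 and 3433 in control 1, but only 683 in control 2. Every fold below is the authors' own fold enrichment of a peak over that library's background, so a fold of 1 means no enrichment. Positions are 1-based along the transposon sequence of the files, not in the genome. Copies of an element at different genomic sites cannot be told apart. The open reading frames and repeats of the elements were not annotated here.

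**Figure D1:**
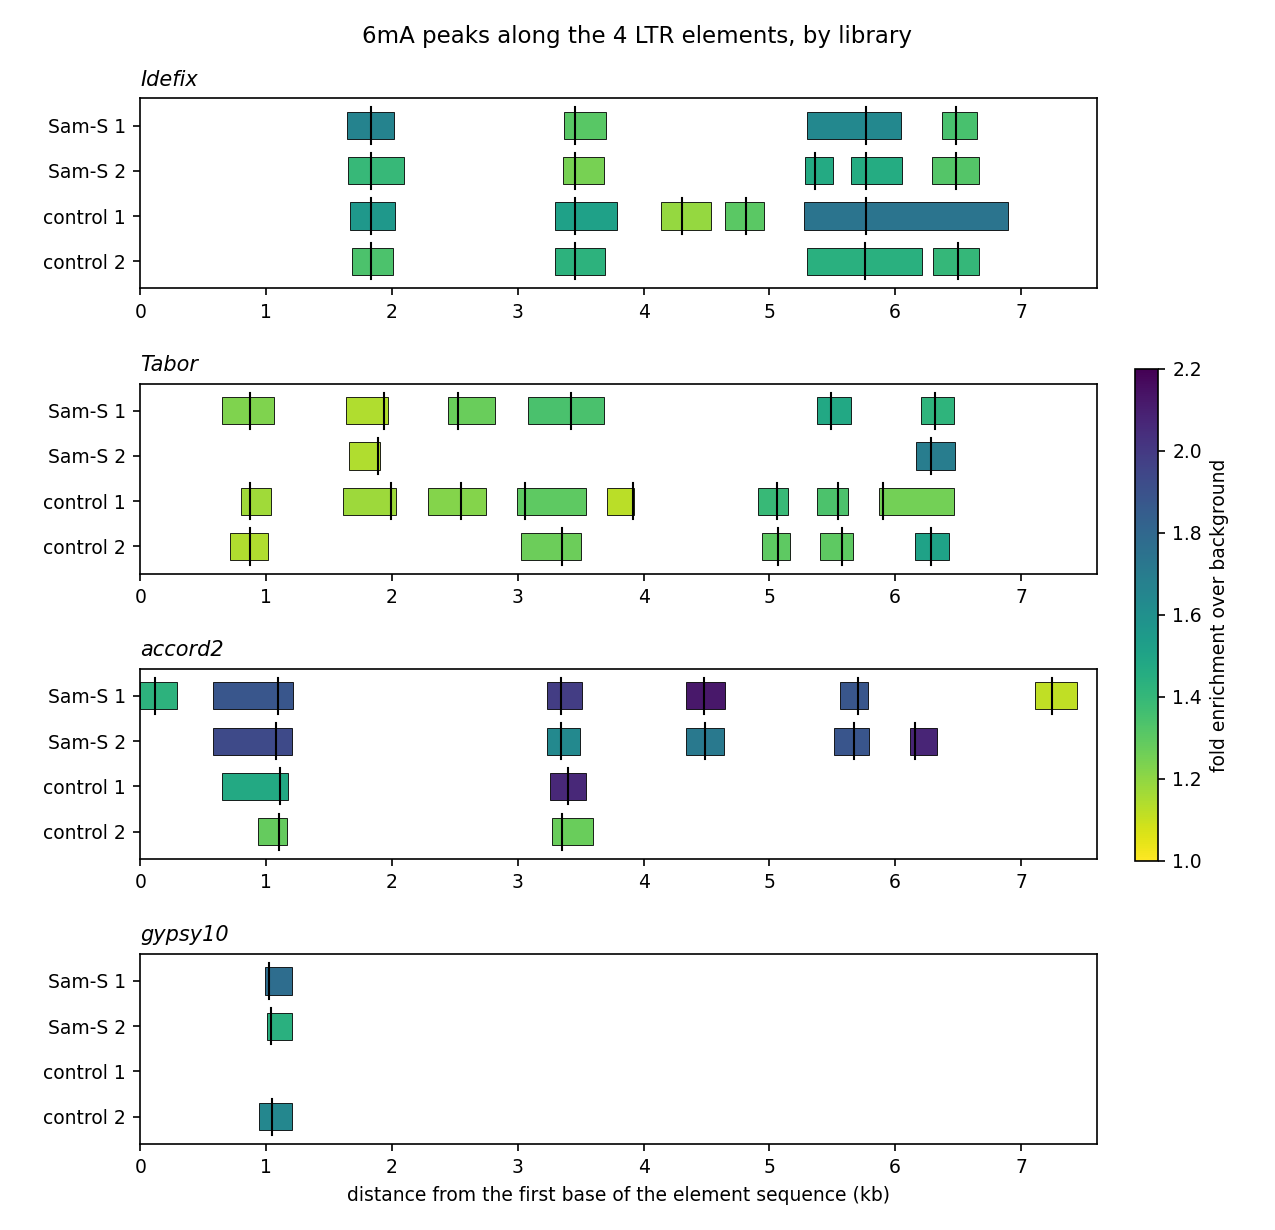
Peaks of each library (rows) along the 4 elements, against distance from the first base of the element sequence in kb. Bars span the peaks, vertical lines mark summits and colour gives the fold enrichment. On accord2 the Sam-S libraries hold 6 and 5 peaks and the control libraries 2 each, while the first and middle Idefix summits line up within 2 bp in all 4 libraries.

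On accord2 (FBte0001166) there were more peaks, and more bases under peaks, in both Sam-S libraries than in either control library. It had 6 peaks in Sam-S 1 and 5 in Sam-S 2, against 2 in control 1 and 2 in control 2. The peaks covered 2076 bp in Sam-S 1 and 1685 bp in Sam-S 2, against 809 bp in control 1 and 560 bp in control 2. The mean was 1881 ± 276 bp in Sam-S and 685 ± 176 bp in control libraries (SD, n = 2 each), a difference of 1196 bp (two-sided exact permutation test, p = 0.333). That p is the smallest that 2 against 2 libraries allow, so no comparison of the genotypes could pass 0.05. The ratio of covered bases, Sam-S over control, was 2.57 in batch 1 and 3.01 in batch 2. Both Sam-S libraries were above both control libraries in covered bases for 2 of the 8 transposons (25%), accord2 being the only one of the 4 elements described here.

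The peaks of accord2 fell on 7 positions, where a position is a stretch of peaks that share at least 1 bp. All 4 libraries had a peak at 2 of them. The first, from 578 to 1216, was enriched 1.88-fold in Sam-S 1 and 1.93-fold in Sam-S 2, against 1.47-fold in control 1 and 1.28-fold in control 2. Both Sam-S folds lay above both control folds there. The mean fold was 1.90 ± 0.0381 in Sam-S and 1.38 ± 0.135 in control libraries (SD, n = 2 each), a log2 difference of 0.47 (exact permutation p = 0.333). The log2 difference was 0.35 in batch 1 and 0.59 in batch 2, and it stayed between 0.37 and 0.57 when any 1 library was left out. The 95% counting intervals of the folds were 1.70 to 2.07 in Sam-S 1 and 1.73 to 2.15 in Sam-S 2, and 1.34 to 1.62 in control 1 and 1.15 to 1.43 in control 2, so they did not touch across genotypes. These intervals take the number of stacked tags at the summit as a count and the background as exact, and cover counting error only. They also take each tag as independent, and the heights of Sam-S 2 are approximate. The heights of 406 in Sam-S 1 and 421 in control 1 passed 400, the most that 200 bp tags allow with 1 kept per position and strand. Error in the background would widen the intervals, and the background differed between the genotypes here, as given below. Whether the wider intervals would touch was not tested.

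The second shared position of accord2, from 3231 to 3598, was enriched 1.98-fold in Sam-S 1 and 1.63-fold in Sam-S 2, against 2.07-fold in control 1 and 1.27-fold in control 2. The genotypes overlapped, since control 1 had the highest fold and control 2 the lowest. The log2 difference of 0.15 (exact permutation p = 1) was -0.20 without control 2. Summits of the first position lay within 31 bp of each other in the 4 libraries, and those of the second within 57 bp. Control 2 had the lowest fold at both positions. Its highest fold on the other 4 transposons was 1.60, against 2.68 in Sam-S 1, 2.94 in Sam-S 2 and 2.94 in control 1. Control 2 also had the lowest fold at Idefix 1645 to 2093 (1.34) and Idefix 5277 to 6895 (1.44). It was not the lowest library at Idefix 3297 to 3789 or Tabor 5868 to 6478. At gypsy10 945 to 1209 it was not the lowest of the libraries with a peak, but control 1 had no peak to rank there. The part of a weaker control 2 in the accord2 differences was not tested.

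At another 2 positions of accord2, each Sam-S library had a peak and the control libraries had none. From 4336 to 4646 the fold was 2.12 in Sam-S 1 and 1.72 in Sam-S 2, and the summits were 11 bp apart. From 5517 to 5788 it was 1.88 in each of Sam-S 1 and Sam-S 2, and the summits were 34 bp apart. Over all 47 positions of the 8 transposons, 4 (8.51%) had this set of libraries. Sam-S 2 alone had a peak from 6119 to 6330, with a fold of 2.07. Sam-S 1 alone had peaks from 1 to 294 with a fold of 1.43, and from 7112 to 7446 with a fold of 1.11. The lists give no fold where no peak was called, so the control values at these positions are not known beyond the lack of a call. The highest fold on the element was 2.12 in Sam-S 1 and 2.07 in Sam-S 2, against 2.07 in control 1 and 1.28 in control 2, a log2 difference of 0.36 (exact permutation p = 0.333) that became 0.02 without control 2 and 0.71 without control 1.

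**Figure D2:**
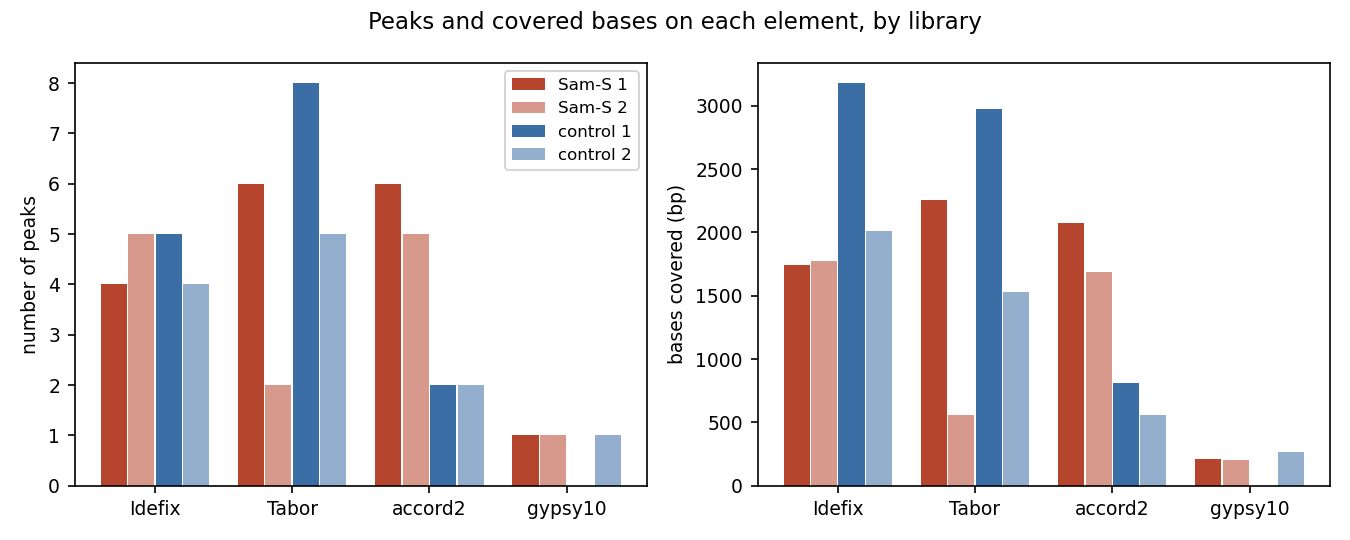
Number of peaks (left) and bases covered in bp (right) on each element, with 1 bar per library, Sam-S libraries in red and control libraries in blue. On accord2 both Sam-S bars exceed both control bars in both panels, with 2076 and 1685 bp against 809 and 560 bp. On Idefix the Sam-S libraries cover 1744 and 1778 bp against 3179 and 2010 bp in the control libraries.

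Idefix (FBte0000104) had as many peaks in Sam-S as in control libraries, but they covered fewer bases. It had 4 peaks in Sam-S 1 and 5 in Sam-S 2, against 5 in control 1 and 4 in control 2. They covered 1744 bp in Sam-S 1 and 1778 bp in Sam-S 2, against 3179 bp in control 1 and 2010 bp in control 2. The mean was 1761 ± 24.0 bp in Sam-S and 2595 ± 827 bp in control libraries (SD, n = 2 each), a difference of -833.5 bp (exact permutation p = 0.333). The difference was -249 bp without control 1, the library with the widest peaks, and -1418 bp without control 2. Both Sam-S libraries were below both control libraries in covered bases for 2 of the 8 transposons (25%).

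Idefix peaks fell on 5 positions, of which 3 were called in every library. At the middle one, from 3297 to 3789, the folds were 1.31 in Sam-S 1 and 1.25 in Sam-S 2, against 1.52 in control 1 and 1.43 in control 2. Both Sam-S folds lay below both control folds. The mean fold was 1.28 ± 0.0446 in Sam-S and 1.47 ± 0.0614 in control libraries (SD, n = 2 each), a log2 difference of -0.21 (exact permutation p = 0.333). The log2 difference was -0.21 in batch 1 and -0.20 in batch 2, and it ran from -0.25 to -0.16 when 1 library was left out. The counting intervals were 1.24 to 1.38 in Sam-S 1 and 1.18 to 1.31 in Sam-S 2, and 1.44 to 1.59 in control 1 and 1.36 to 1.51 in control 2. Those of Sam-S 1 and control 2 overlapped, and the others did not touch across genotypes. The peak also spanned 331 bp in Sam-S 1 and 327 bp in Sam-S 2, against 493 bp in control 1 and 395 bp in control 2.

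The first shared Idefix position, from 1645 to 2093, was enriched 1.66-fold in Sam-S 1 and 1.40-fold in Sam-S 2, against 1.56-fold in control 1 and 1.34-fold in control 2. The batch 1 libraries were the higher pair, and the genotypes overlapped. The log2 difference was 0.08 (exact permutation p = 0.667), with 0.09 in batch 1 and 0.06 in batch 2. The third, from 5277 to 6895, was enriched up to 1.64-fold in Sam-S 1 and 1.47-fold in Sam-S 2, against 1.74-fold in control 1 and 1.44-fold in control 2. Its log2 difference was -0.03 (exact permutation p = 1), with opposite directions in the batches.

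The fold of the middle position was therefore set against that of the first within each library. This cancels only a factor that multiplies every fold of a library alike, and whether libraries differed in that way was not tested. The first position had 1.27 times the fold of the middle one in Sam-S 1 and 1.12 times in Sam-S 2, against 1.03 times in control 1 and 0.936 times in control 2. Both Sam-S ratios exceeded both control ratios, by 0.28 on the log2 scale on average (0.30 in batch 1 and 0.26 in batch 2, exact permutation p = 0.333). This ratio is 1 of 14 between shared positions that were computed after the folds had been seen, and none of the 14 could fall below that p. The genotypes did not overlap in 8 of the 14, with Sam-S above in 5 and below in 3, and the middle position was picked because its folds had separated. The 14 reuse a few positions, most of them set against the first Idefix position, so they are not separate observations.

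The summits of the first and middle Idefix positions recurred at nearly the same base. At the first position the summit was base 1833 in Sam-S 1 and 1831 in Sam-S 2, against 1833 in control 1 and 1831 in control 2. At the middle position it was base 3458 in Sam-S 1 and 3457 in Sam-S 2, against 3456 in both control libraries. The median range of the summits was 35 bp over the 21 transposon positions that were called in every library, and single ranges ran from 0 to 706 bp. These ranges use the summit of each library's highest fold, by which the third Idefix position had a range of 403 bp. In the third position the calls were divided differently between libraries. Control 1 had 1 peak of 1619 bp, whereas Sam-S 1 and control 2 had 2 peaks and Sam-S 2 had 3. A summit near base 5767 was present in all libraries, within 10 bp, and the fold was 1.64 in Sam-S 1 and 1.46 in Sam-S 2, against 1.74 in control 1 and 1.44 in control 2. A second summit between bases 6485 and 6496 was listed in 3 libraries, where the fold was 1.35 in Sam-S 1 and 1.32 in Sam-S 2, against 1.40 in control 2. In control 1 the long peak runs over this stretch. Only Sam-S 2 listed a summit at base 5365, with a fold of 1.47. The remaining positions, from 4141 to 4539 and from 4646 to 4954, had a peak in control 1 alone, with folds of 1.19 and 1.30.

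**Figure D3:**
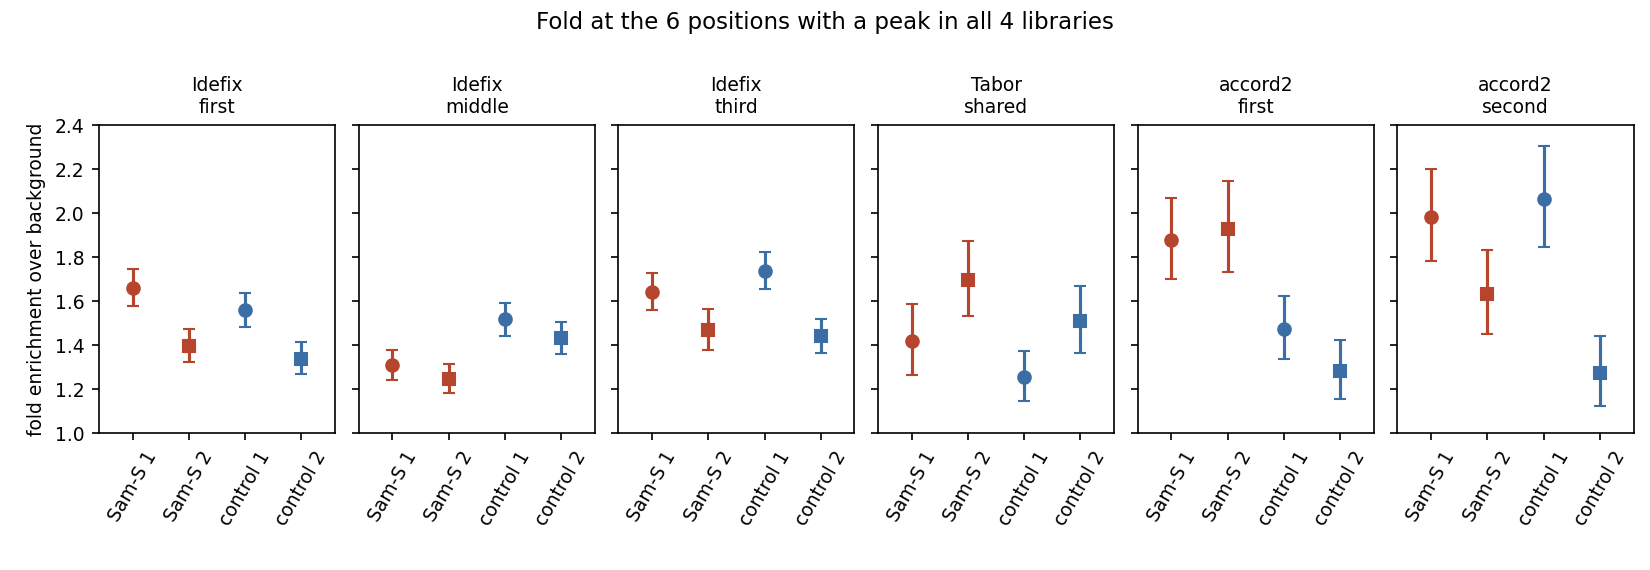
Fold enrichment (vertical axis, starting at 1) in each library at the 6 positions of Idefix, Tabor and accord2 that were called in every library; circles are batch 1, squares batch 2, and bars are 95% counting intervals. At the first accord2 position both Sam-S folds (1.88 and 1.93) lie above both control folds (1.47 and 1.28), and at the middle Idefix position both Sam-S folds (1.31 and 1.25) lie below them (1.52 and 1.43). The genotypes overlap in the other panels.

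Tabor (FBte0000974) had the most peaks of the 4 elements, and most of them had low folds. There were 6 in Sam-S 1 and 2 in Sam-S 2, against 8 in control 1 and 5 in control 2. They covered 2257 bp in Sam-S 1 and 562 bp in Sam-S 2, against 2976 bp in control 1 and 1533 bp in control 2. In both batches the Sam-S library had fewer peaks and covered fewer bases, but Sam-S 1 lay above control 2 and the genotypes overlapped (exact permutation p = 0.667 for each). The median fold of a library's peaks was 1.31 in Sam-S 1 and 1.42 in Sam-S 2, against 1.24 in control 1 and 1.30 in control 2. These medians are over different sets of positions, and that of Sam-S 2 is over only 2 peaks, with folds of 1.14 and 1.70.

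Of the 8 positions on Tabor, 1 had a peak in all 4 libraries. From 5868 to 6478 the folds were 1.42 in Sam-S 1 and 1.70 in Sam-S 2, against 1.26 in control 1 and 1.51 in control 2. The batch 2 libraries were the higher pair here, opposite to the first Idefix position. The log2 difference was 0.17 (exact permutation p = 0.667), with 0.18 in batch 1 and 0.17 in batch 2. It was 0.04 without control 1 and 0.05 without Sam-S 2, and 0.30 without Sam-S 1 and 0.31 without control 2. The batch 1 value sets different places against each other, because the summit was base 6316 in Sam-S 1 and 5907 in control 1. In batch 2 it was base 6287 in Sam-S 2 and 6282 in control 2.

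Sam-S 2 was the library that lacked Tabor peaks most often. At 3 positions a peak was found in every library but Sam-S 2. This set of libraries was seen at 4 of the 47 transposon positions, and at 1 of the 26 on the other 4 transposons. From 652 to 1060 the fold was 1.23 in Sam-S 1, against 1.17 in control 1 and 1.14 in control 2, with summits within 1 bp. From 2994 to 3687 it was 1.34 in Sam-S 1, against 1.30 in control 1 and 1.27 in control 2. From 5378 to 5662 it was 1.48 in Sam-S 1, against 1.34 in control 1 and 1.30 in control 2, with summits within 92 bp. At all 3 the Sam-S 1 fold was above both control folds, with counting intervals that overlapped. The folds from 2994 to 3687 set different places against each other. The summit there was base 3423 in Sam-S 1, against 3061 in control 1 and 3349 in control 2. From 4909 to 5161 neither Sam-S library had a peak, and the fold was 1.39 in control 1 and 1.30 in control 2. Of the 47 transposon positions, 3 (6.38%) had this set of libraries. From 1614 to 2030 the fold was 1.14 in Sam-S 1 and 1.14 in Sam-S 2, against 1.18 in control 1, with no peak in control 2. From 2284 to 2820 it was 1.27 in Sam-S 1 and 1.22 in control 1, the batch 1 libraries alone. From 3708 to 3922 control 1 alone had a peak, with a fold of 1.12.

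On gypsy10 (FBte0000351) a single position was called, from 945 to 1209, in 3 of the 4 libraries. The fold was 1.78 in Sam-S 1 and 1.44 in Sam-S 2, against 1.65 in control 2, and control 1 had no peak. The peak covered 212 bp in Sam-S 1 and 201 bp in Sam-S 2, against 262 bp in control 2. The control 2 fold lay between the Sam-S folds. The counting intervals were 1.51 to 2.08 in Sam-S 1, 1.20 to 1.70 in Sam-S 2 and 1.41 to 1.92 in control 2, so the 3 folds were not separable at this depth. The summits were base 1024 in Sam-S 1 and 1038 in Sam-S 2, against 1049 in control 2.

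The elements differed in how many tags stood behind a fold. The height of stacked tags at the summit and the background under it were recovered from the deposited fold and p of each peak. On Idefix the height ran from 734 to 1673 tags over a background of 562 to 1117. On Tabor it ran from 307 to 693 over 216 to 593, and on accord2 from 191 to 555 over 101 to 499. The gypsy10 peaks rested on heights of 130 to 164 over backgrounds of 87.4 to 99.2. Counting error alone was thus smallest for folds on Idefix and largest for those on gypsy10. Libraries could differ by more than that error. At the first Idefix position the counting interval was 1.58 to 1.75 in Sam-S 1 and 1.27 to 1.41 in control 2. With tags extended to 200 bp and 1 tag kept per position and strand, as in the genome lists, no height could pass 400. On the transposon sequences 18 of 18 Idefix and 18 of 21 Tabor peaks passed it, as did 3 of 15 on accord2.

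**Figure D4:**
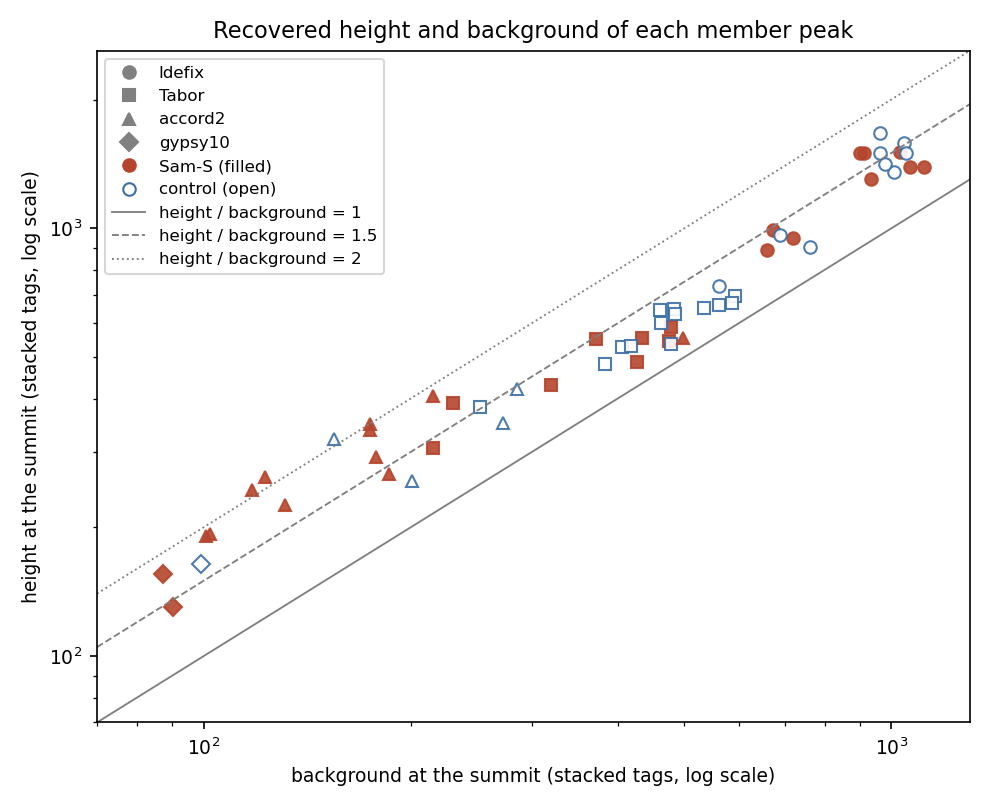
Height of stacked tags at the summit (vertical, log scale) against the background at the same base (horizontal, log scale) for each of the 57 peaks; symbols give the element, filled red points are Sam-S and open blue points control libraries, and the lines mark ratios of 1, 1.5 and 2. gypsy10 sits lowest, at heights of 130 to 164, and Idefix highest, at 734 to 1673.

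Heights and backgrounds are on a scale of their own in each library, so they were compared as ratios to the first Idefix position of the same library. At the first accord2 position the background was 0.239 of the Idefix background in Sam-S 1 and 0.187 in Sam-S 2, against 0.296 in control 1 and 0.270 in control 2. Both Sam-S ratios were below both control ratios, with a log2 difference of -0.42 (exact permutation p = 0.333). The height there was 0.271 of the Idefix height in Sam-S 1 and 0.259 in Sam-S 2, against 0.280 in control 1 and 0.259 in control 2, a log2 difference of -0.02 (exact permutation p = 0.667). The background ratio was thus lower in Sam-S where the accord2 fold was higher. A fold is height over background, so relative to Idefix the fold difference at this position lay in the background (log2 -0.42) and hardly in the height (-0.02). Why the backgrounds differed was not tested. The second shared accord2 position did not show this pattern. Its background ratio differed by log2 0.11, with the genotypes overlapping, and its height ratio by 0.18, with both Sam-S ratios above both control ratios. At the middle Idefix position the background was 1.18 times that of the first in Sam-S 1 and 1.20 times in Sam-S 2, against 1.08 times in control 1 and 1.04 times in control 2. The height there was 0.930 times that of the first in Sam-S 1 and 1.07 times in Sam-S 2, against 1.05 times in control 1 and 1.11 times in control 2. The Sam-S backgrounds lay above the control ones, while the heights overlapped.

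Over the 4 elements, 21 positions held a peak and 6 of them (28.6%) had one in all 4 libraries, against 15 of the 26 positions (57.7%) on the other 4 transposons, a difference that was not tested. At the 6 shared positions the Sam-S folds lay above the control folds without overlap at 1, against 5 of 21 (23.8%) over all transposons. They lay below without overlap at 1, against 3 of 21 (14.3%). Sam-S had the higher fold in each batch at 3 of the 6, against 9 of 21 (42.9%), and the lower fold in each batch at 1, against 4 of 21 (19%). The median log2 difference was 0.11 over the 6 positions and 0.10 over all 21. The total was 17 peaks in Sam-S 1 and 13 in Sam-S 2, against 15 in control 1 and 12 in control 2, and the batch 1 library was the higher in each genotype. The peaks covered 6289 bp in Sam-S 1 and 4226 bp in Sam-S 2, against 6964 bp in control 1 and 4365 bp in control 2. The mean difference in covered bases, Sam-S minus control, was 1196 bp on accord2, -833.5 bp on Idefix, -845 bp on Tabor and 75.5 bp on gypsy10. The Tabor value was 2.5 bp without Sam-S 2 and -123.5 bp without control 1. The gypsy10 value was -55.5 bp without control 1, the library with no peak there.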

How the data were processed

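The submitters' processing notes name Bowtie2. The transposon lists were deposited in the narrowPeak layout, 1 per library, holding the authors' fold enrichment (a ratio), −log10 p, −log10 q and a whole-number score; their caller, cutoff and handling of copies and duplicates are not given in the sources used here. The lowest deposited −log10 q was 1.57. The genome lists, made with MACS 2.1.1.20160309 per the file headers, were used for tag totals and numbers of peaks. They also served to check the recovery of heights, since they hold the deposited pileup signal.

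Peaks sharing at least 1 bp were joined into positions, and a library's highest fold was used where it had several peaks; all 4 elements and every position on them are given. Height and background were solved from the deposited fold, taken as (height + 1)/(background + 1), and the Poisson p, a step chosen after the data were seen. Solutions were whole, within 15% of the step to the next whole height, for 17 of 17 peaks in Sam-S 1, 5 of 13 in Sam-S 2 (heights there are approximate), 15 of 15 in control 1 and 12 of 12 in control 2. In the genome lists they equalled the deposited pileup in Sam-S 1 and control 1, and lay within 6.02% of it in Sam-S 2 and 4.86% in control 2, whose pileup the authors' caller had scaled. On simulated data 250 of 250 positions and 500 of 500 heights were recovered. Those data were made with the same formulas, whole heights and well-separated peaks of equal length. They therefore checked the code and not its fit to these lists.

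Genotypes were compared over libraries by a two-sided exact permutation test of the difference of means, with folds on the log2 scale. Replicate numbers are the batch numbers of the labels, so they pair the libraries; batch deviations of log2 fold correlated with r = 0.85 over the 6 shared positions of the 4 elements and 0.07 over all 21 shared transposon positions. The elements and comparisons were chosen with earlier results of these data known. The calculations used Python 3.11.15, numpy 2.4.6, scipy 1.17.1 and matplotlib 3.10.9.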

Additional observations from a re-analysis of the deposited data

How the results depend on the processing

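No p could fall below 0.333, or 0.5 with the replicate block, so only sizes and directions were compared. The block left each difference as it was (0.36 for the highest accord2 fold, 0.13 for Tabor and -0.02 for Idefix, log2). Leaving out 1 library gave from 0.02 to 0.71 for accord2, from 0.03 to 0.23 for Tabor and from -0.15 to 0.12 for Idefix, whose sign changed without Sam-S 2 or control 1. The median change over the 6 shared positions ran from -0.10 (without control 2) to 0.15, and was -0.02 without Sam-S 1. Per position, the range was from -0.0495 to 0.20 at the first Idefix position, -0.16 to 0.11 at the third, 0.04 to 0.31 at the Tabor position and -0.20 to 0.50 at the second accord2 position. The difference in peaks ran from -0.5 to 3.5, and that in log2 bases from -0.43 to 0.24. The accord2 difference in covered bases ran from 1000.5 to 1392 bp, and was 1309 bp with −log10 q of at least 5; that of Tabor ran from -1693 to 2.5 bp, and that of gypsy10 from -55.5 to 206.5 bp, with -25 bp at this cutoff on q. The cutoff removed all accord2 peaks of control 2, so no highest fold could be compared there, and left gypsy10 peaks in 2 libraries (Sam-S 1 and control 2). It left 4 shared positions in place of 6; joining by summits within 150 bp left 5, since the Tabor summit of control 1 lay apart. The count of 2 accord2 positions with peaks in both Sam-S libraries alone was the same under the 50% overlap, summit and q settings. Settings for covered bases of single elements and for single positions were chosen after the data were seen.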
